A study of Mus musculus with 10 samples.

Results

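Histone genes were taken as every gene of the deposited count table whose symbol follows the naming of the core and linker histone gene families (H1f, H2ac, H2bc, H3c or H4c followed by a number, or the older Hist1h to Hist4h names). Of 25178 genes in the table, 66 carried such a symbol, 3 of these were pseudogenes and were left out, and the remaining 63 are described here. They comprised 8 genes for linker histone H1, 15 for H2A, 17 for H2B, 10 for H3 and 13 for H4. The libraries came from bone marrow of the inbred mouse strain C57/BL6, taken at steady state from 5 males and 5 females with 1 library per mouse, so that the replicates were separate animals. Marrow was flushed from 1 hindlimb of each mouse, cells bearing mature lineage markers were removed on magnetic beads, and RNA of the remaining preparation, labelled as hematopoietic stem and progenitor cells (HSPC), was sequenced in bulk. All animals shared strain and preparation, the labels name no treatment, and sex was the only difference between the groups that the labels give. Neither the age of the mice nor the library kit is stated in the labels. The comparison asks whether histone gene RNA differed between the sexes in these cells.

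Histones package DNA into nucleosomes, which are built from H2A, H2B, H3 and H4, while H1 binds the linker DNA between them. Most histone genes are replication-dependent: they lie in clusters, lack introns, are transcribed in S phase, and give mRNAs that end in a conserved stem-loop instead of a poly(A) tail, bound by the stem-loop binding protein Slbp. A smaller number, such as H1f0, a linker histone that accumulates in cells that leave the cycle, are made outside S phase and give polyadenylated mRNAs. In marrow, cycling progenitors and erythroid precursors make histones as they divide, whereas H1f6 and H2bc1 are known mainly from the testis.

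The 63 genes were all found in the GENCODE vM21 annotation (GRCm38), and 58 had a single annotated exon. On chromosome 13, 23 lay between 21715763 and 22043676 (the first block of the Hist1 cluster) and 30 between 23531050 and 23934156 (the second block). The Hist2 cluster on chromosome 3 held 5, the Hist3 cluster on chromosome 11 held 2 and the Hist4 locus on chromosome 6 held 1, H4c16. H1f0 (chr15:79028450-79030504, plus strand) and H1f10 (chr6:87980421-87981637, minus strand) stood alone.

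The sequences below are shown because the stem-loop sets how these mRNAs end. A search of the annotated transcripts for the letters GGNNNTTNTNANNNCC with 6 paired stem bases, on the mRNA strand, found a match in 43 of the 63 histone genes and in 0.298% of 21838 other protein-coding genes. By class, matches were in 4 of 8 H1, 9 of 15 H2A, 10 of 17 H2B, 8 of 10 H3 and 12 of 13 H4 genes. There were 8 distinct sequences, and the most frequent was present in 23 genes. The lines give the 16 bases of the match in capitals with up to 5 flanking bases in lower case, from GENCODE vM21 transcripts, 5′ to 3′, for members that the results below turn on and for 2 genes with less frequent sequences, H2bc12 and H3c8.
H2ac24: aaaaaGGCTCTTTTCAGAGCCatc
H2ac23: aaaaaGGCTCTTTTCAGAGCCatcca
H2ac11: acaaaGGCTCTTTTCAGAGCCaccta
H1f2: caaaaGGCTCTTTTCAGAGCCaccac
H2bc12: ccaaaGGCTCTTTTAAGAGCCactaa
H3c8: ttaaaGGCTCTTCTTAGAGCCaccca
H4c9: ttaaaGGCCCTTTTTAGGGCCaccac
H4c17: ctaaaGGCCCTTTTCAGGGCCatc
H4c18: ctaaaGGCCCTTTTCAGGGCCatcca
The H2A and H1 lines carried the most frequent sequence, which was also that of 8 of the 10 H2B and 4 of the 8 H3 genes with a match. The capitals of H2bc12 were in 2 of the 10 H2B genes and those of H3c8 in 1 of the 8 H3 genes. The near-identical genes H4c17 and H4c18 shared their capitals with 5 other H4 genes. No match was found in the transcripts of H1f0 or H1f10, which says only that these letters are not in those gene models. In H2ac24 and H4c17 the gene model ended 3 bases after the stem-loop, whereas in H1f2 it ran on for 840 bases and in H1f3 for 4884.

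Promoter windows from RefSeq (GRCm38.p6, 250 bases before to 50 after the first listed start) matched 54 of the 63 genes by symbol. CCAAT, a box bound by the factor NF-Y, was searched on both strands and was present in 81.5% of these windows, against 37.8% of 26971 other promoter windows of the same length. It was found in 14 of 14 H2A, 13 of 13 H2B, 8 of 8 H3, 6 of 8 H1 and 3 of 11 H4 windows. TATAAA, a core of the TATA box, was in 59.3% against 14.1% of the others, and ATTTGCAT, the octamer bound by Oct1, in 18.5% against 1.72%, all 10 of the former being H2A or H2B windows. Windows of divergently transcribed neighbours overlapped, so they were not independent: 252 of 252 aligned bases of H2ac11 and H2bc11 were identical in reverse complement. The windows of the near-identical genes H2ac23 and H2ac24 shared 200 of 200 aligned bases. Below are the windows of the most highly expressed H2A gene, of the more distinct H2ac11 and of H1f0, to show the contrast in CCAAT boxes. CCAAT (or ATTGG, its reverse complement) is in capitals.
H2ac24, chr13:21833426-21833725, minus strand: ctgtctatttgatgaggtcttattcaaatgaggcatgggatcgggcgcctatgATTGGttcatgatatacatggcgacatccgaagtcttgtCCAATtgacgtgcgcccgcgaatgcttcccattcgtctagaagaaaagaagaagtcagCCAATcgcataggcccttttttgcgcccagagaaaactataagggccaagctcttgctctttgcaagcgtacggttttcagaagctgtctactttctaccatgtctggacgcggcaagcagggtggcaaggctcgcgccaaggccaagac
H2ac11, chr13:22042900-22043199, minus strand: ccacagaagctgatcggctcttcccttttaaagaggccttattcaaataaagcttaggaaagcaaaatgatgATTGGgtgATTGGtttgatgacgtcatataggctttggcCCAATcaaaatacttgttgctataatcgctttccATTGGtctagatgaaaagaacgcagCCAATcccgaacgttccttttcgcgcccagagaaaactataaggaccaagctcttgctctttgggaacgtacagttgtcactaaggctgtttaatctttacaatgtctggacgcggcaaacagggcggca
H1f0, chr15:79027962-79028261, plus strand: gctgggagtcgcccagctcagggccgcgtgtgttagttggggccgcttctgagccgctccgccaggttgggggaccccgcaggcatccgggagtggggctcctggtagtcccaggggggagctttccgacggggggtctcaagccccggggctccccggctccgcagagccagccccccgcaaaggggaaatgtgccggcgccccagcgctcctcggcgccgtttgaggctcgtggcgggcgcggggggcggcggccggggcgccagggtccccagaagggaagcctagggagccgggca
H2ac24 held 3 CCAAT boxes and H2ac11 held 5, and H1f0 held none. None of these windows held TATAAA or ATTTGCAT. The H1f0 window rests on a RefSeq start upstream of the GENCODE start at 79028450. These matches describe letters and were not tested as binding sites.

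The libraries held between 20754101 and 24759687 counts. Cell type markers varied between libraries. All 12 stem and progenitor markers were present, including Kit and Cd34, and their summed level ran from 834.9 to 1050.2 CPM in the females and from 672.1 to 983.7 CPM in the males (CPM, counts scaled to a common library size after TMM normalization). The 10 erythroid markers summed to 4691.2 to 9065.1 CPM in the females and 11058.9 to 47711.3 CPM in the males, and the 11 mature neutrophil markers to 282.3 to 1050.1 CPM and 227.3 to 9351.8 CPM. Neither list had a marker at 0 in all libraries. By edgeR, 7 of 10 erythroid and 11 of 11 neutrophil markers had lower female levels with p below 0.05 before adjustment. Of all genes tested, 5.41% did so. After adjustment, edgeR called none of these markers. In males 1 to 5 the neutrophil sum was 9351.8, 2884.8, 1462.4, 1460.2 and 227.3 CPM, so male 5 lay below every female. DESeq2 called 5 of the 10 erythroid markers (Alas2, Hba-a1, Hba-a2, Hbb-b1 and Hbb-bt) and none of the neutrophil markers, where it called 0.337% of all genes tested. Among the B lineage markers its calls included Cd79a and Pax5. B lineage markers summed to 10.5 to 15.3 CPM in the females and 14.3 to 45.1 CPM in the males, T and NK markers to 30.8 to 48.5 and 46.1 to 81.1 CPM, monocyte and macrophage markers to 177.7 to 329.2 and 207.6 to 450.7 CPM, and stromal and endothelial markers to 369.9 to 2472.1 and 395.3 to 2800.0 CPM. Single genes weighed heavily on some sums. Nkg7 made up most of the T and NK sums, with means of 37.4 CPM in the females and 54.8 CPM in the males. In male 5, the top of the stromal range, Col1a1 and Col1a2 were at 1612.2 and 1097.7 CPM. The part of these cells in the histone values was not tested, and in bulk RNA fewer cells of a type and less RNA per cell cannot be told apart.

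Histone genes together took 0.162% ± 0.0223 of all counts among the females and 0.173% ± 0.0286 in the males (mean ± SD, n = 5 each). In females 1 to 5 the share was 0.199, 0.157, 0.159, 0.139 and 0.154%, and in males 1 to 5 it was 0.128, 0.173, 0.177, 0.176 and 0.209%. Both the lowest library, male 1, and the highest, male 5, were males, the sexes overlapped, and the difference of the means was smaller than the SD within either sex. That difference (female minus male) was -0.0111 percentage points, and it ran from -0.0221 without male 1 to -0.0021 without male 5. The exact binomial interval (Clopper-Pearson, 95%) of each share was narrow, 0.127 to 0.130% in male 1 and 0.207 to 0.211% in male 5, and covers counting error only.

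H2A genes supplied most of these counts, 84.1% on average (78.2 to 88.1% over libraries). H1 genes followed with 7.38%, H2B with 4.36%, H4 with 3.11% and H3 with 1.1%. Within H2A, 3 genes of the first Hist1 block, H2ac23, H2ac24 and H2ac11, alone held 81.5% of histone counts on average (75.4 to 86%). Their summed share of the library ran from 0.0969% in male 1 to 0.179% in male 5, a 1.85-fold range, with means of 0.132% ± 0.0232 in the females and 0.141% ± 0.0298 in males. The other 60 histone genes took 0.0291% ± 0.00268 in the females and 0.0314% ± 0.00429 in males. Their highest library was a different one, male 2, at 0.0387%. Where the total share is quoted, it is therefore largely a measure of the counts given to 3 H2A genes. Those counts rest on how reads of near-identical copies were assigned.

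**Figure D1:**
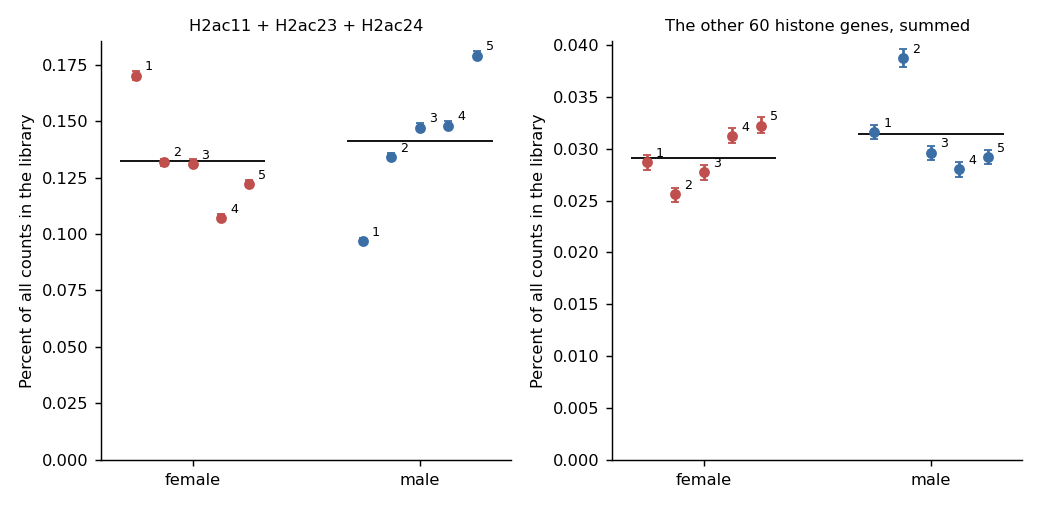
Percent of all counts per library in H2ac11, H2ac23 and H2ac24 (left) and in the other 60 histone genes (right), by sex, with the replicate number beside each point, exact binomial intervals as bars and the mean as a line. The left panel is highest in male 5 (0.179%) and lowest in male 1 (0.0969%), while the right panel is highest in male 2 (0.0387%).

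By class, the share was lower in females than in males in each of the 5 classes, by less than 1 SD of the males each time. H1 genes took 0.0113% ± 0.00187 in the females and 0.0126% ± 0.00187 in males, and H2A genes 0.137% ± 0.0234 and 0.145% ± 0.0300. H2B genes took 0.00681% ± 0.000356 and 0.00747% ± 0.00127, H3 genes 0.00176% ± 0.000195 and 0.0019% ± 0.000242, and H4 genes 0.00501% ± 0.000231 and 0.0052% ± 0.00113. The SD was several times larger in males than in females for H2B and H4, where male 2 was the highest library. Without male 2 the H2B difference (female minus male) shrank to -0.00011 percentage points, and the H4 difference turned to 0.000283. The H2A difference turned to 0.000764 without male 5, and the H1 difference, -0.00131 with all H1 genes, was 0.000199 without H1f0 and H1f10.

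Per kilobase of exon, levels spanned several orders of magnitude among the histone genes. H2ac24 (1330.4 CPM/kb ± 246.0, SD over 10 libraries) and H2ac23 (1276.9 ± 255.0) came first, and H2ac11 followed (241.9 ± 58.4). The means of the first pair differed by less than the SD over libraries. Within a library, the H2ac24 count minus the H2ac23 count ran from -107 (female 1) to 2064 (female 5). In female 5 the SD of that difference for independent counts would be 165.7. H4c9 came next (41.4 ± 9.58), followed by H1f2 (30.0 ± 9.78), H2bc4 (25.9 ± 6.75) and H1f0 (24.6 ± 4.68), neighbours whose ranges overlapped. The class medians were close to each other, 2.51 CPM/kb for H1, 4.22 for H2A, 2.12 for H2B, 2.64 for H3 and 1.69 for H4. These values depend on the annotated exonic length, which ran from 312 bases (H4c12) to 7425 (H1f3, at 0.413 CPM/kb). Where a model runs far past the stem-loop and the mRNA does not, the value per kilobase would be too low. H3 genes lay in the narrowest range, 1.23 to 3.75 CPM/kb, so no single H3 gene dominated its class. Of the germ-line genes, H1f6 had 3 counts and H2bc1 had 23 over the 10 libraries together; both were below the filter, as were H4c2 with 10 and H2ac21 with 6. H2ac1, also a germ-line histone gene, was not analysed here. Of the germ cell markers, 3 were in the table and only Ddx4 had enough counts to test, at 2.46 ± 0.792 CPM in the females and 2.85 ± 0.722 CPM in the males.

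**Figure D2:**
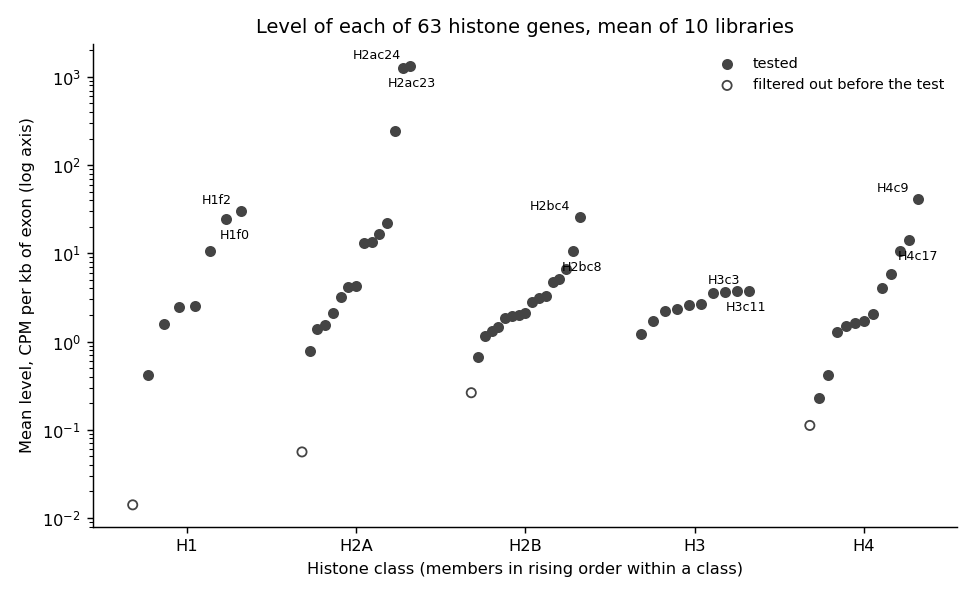
Mean level per kilobase of exon over 10 libraries (log axis) of each of the 63 histone genes, by class, in rising order within a class; open circles mark the 4 genes with too few counts to test. H2ac24 and H2ac23 stand at 1330.4 and 1276.9 CPM/kb, while all 10 H3 genes lie between 1.23 and 3.75 CPM/kb.

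These levels depend on how reads from near-identical copies were assigned, which the sources used here do not state. The levels and the shares above also depend on the library kit, which is not stated. Selection by poly(A) tail would lower the counts of mRNAs that end in a stem-loop, and whether it was used was not tested. Of the 63 genes, 29 had under 50% of their 50-base stretches unique among all annotated transcripts. Only 6.5% of the stretches of H2ac23 and 6.93% of those of H2ac24 were unique, and 93.5% of those of H2ac23 were also in H2ac24. The unique ones lay at the end of the H2ac23 model and the start of the H2ac24 model, so they can reflect where the models begin and end. For H2ac11 21.1% were unique. Values of single genes in such pairs are therefore uncertain. Sums over them, such as the class and total shares, would be too high if a read was counted in more than 1 copy. They would be too low if reads that match several copies were left out. For H2bc23, 97.3% of the stretches were also in H2bc24. The H2bc24 count minus the H2bc23 count ran from -8 to 6 over libraries. The SD of that difference for independent counts would be 12.3 to 15.4. Whether reads were counted in both copies was not tested. In addition, 14 of 15 H2A genes overlapped an annotated miRNA gene on the opposite strand, and H1f0 an antisense gene, Gm49544. Whether the counting used strand is likewise unstated, so reads of both strands cannot be told apart. H1f4 and H2bc6 overlap on the same strand and can share reads.

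In the test between the sexes, 59 of the 63 histone genes had enough counts. None was called at an adjusted p under 0.05 by the edgeR quasi-likelihood test with Benjamini-Hochberg adjustment over 14674 genes, in which 8 genes were called (0.0545%). The smallest adjusted p of a histone gene was 0.363, for H1f0. At an unadjusted p under 0.05 there were 6 histone genes, or 10.2%, against 9.17% of all genes tested, so their count was close to the background. Of these, 5 were lower in females, where 5.41% of all genes tested were, and 1 was higher, where 3.76% were. The lower ones were H1f0, H2ac8, H2bc21, H4c9 and H2bc3 (log2 fold change -0.66, SE 0.30), and the higher one was H4c17. By DESeq2, 1 histone gene was called, H1f0, where 0.337% of all genes tested were.

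H1f0 had the smallest p. Its level in females 1 to 5 was 42.3, 41.2, 41.1, 44.1 and 45.9 CPM, and in males 1 to 5 it was 62.8, 61.3, 44.7, 61.3 and 61.0 CPM. Of the males, 4 lay well above every female, and male 3 lay within the female range, so the groups overlapped. Means were 42.9 ± 2.06 CPM in the females and 58.2 ± 7.58 CPM in the males, and the log2 fold change (female against male) was -0.44 (SE 0.10, edgeR adjusted p = 0.363). With DESeq2 the fold change was the same, -0.44 (SE 0.11), with an adjusted p of 0.0338. Without male 3 it was -0.53 with an edgeR adjusted p of 0.0831, and with a per-library length trend removed it was -0.34. The other fits that left out 1 library had edgeR adjusted p from 0.305 (without male 5) to 0.703 (without female 2). Erythroid marker sums were also above the female range in all 5 males, male 3 included at 12121.8 CPM. These sums were mostly globin counts (Hba-a1, Hba-a2, Hbb-b1 and Hbb-bt). Of the same list, Epor, Klf1 and Tfrc had positive log2 fold changes, 0.11, 0.05 and 0.11. The part of erythroid cells in the H1f0 values was not tested.

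Among the other linker histones, H1f2, the most abundant cluster H1 gene per kilobase, varied more between mice than between sexes. Its level was 31.0, 34.9, 48.9, 59.9 and 59.4 CPM in the females and 64.1, 69.0, 33.6, 38.4 and 28.6 CPM in the males. High and low libraries occurred in both sexes, with over a 2-fold range in the males, and the log2 fold change was 0.0037 (SE 0.27). Without males 1 and 2 it was 0.48 (SE 0.24). H1f10, the other gene outside the clusters, had a log2 fold change of -0.37 (SE 0.19, edgeR adjusted p = 0.506) and ranged from 7.6 to 16.1 CPM in the females and 12.3 to 19.2 CPM in the males. Of 7 tested H1 genes, 6 had negative values, with a median of -0.30.

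Of the H2A genes, the abundant trio showed like patterns over libraries. H2ac24 was at 773.0, 622.9, 586.3, 478.8 and 577.0 CPM in the females and 456.3, 726.8, 710.6, 672.5 and 808.6 CPM in the males. H2ac23 was at 778.2, 570.7, 588.3, 461.4 and 496.3 CPM in the females and 459.0, 646.1, 646.1, 672.5 and 810.8 CPM in the males. Female 1 and male 5 were high and female 4 and male 1 low for both, and the sexes overlapped. Log2 fold changes were -0.15 (SE 0.16) for H2ac24, -0.16 (SE 0.16) for H2ac23 and -0.21 (SE 0.19) for H2ac11, none with an edgeR adjusted p below 0.594. Leaving out 1 library moved H2ac24 between -0.27 (without male 1) and -0.08 (without female 4) and H2ac23 between -0.29 (without female 1) and -0.07 (without male 5). H2ac8, a low-level H2A gene of the second block, was at 2.33, 1.94, 2.05, 2.19 and 2.70 CPM in the females and 3.78, 4.99, 2.77, 3.85 and 2.35 CPM in the males. Males 1, 2, 3 and 4 were above every female and male 5 was not, and the fold change was -0.66 (SE 0.22, edgeR adjusted p = 0.506). Over the class, 12 of 14 tested H2A genes had negative values, with a median of -0.18.

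Of the H2B genes, H2bc21 and H2bc8 were the only histone genes whose 5 females all lay below their 5 males, 2 of 59 where 0.865% of all genes tested did so. No histone gene had all females above all males, against 1.06% of all genes. H2bc21, of the Hist2 cluster, was at 8.44, 6.44, 7.69, 6.79 and 7.20 CPM in the females and 9.90, 9.61, 8.62, 8.50 and 8.82 CPM in the males. The gap between the sexes was narrow, from 8.44 in female 1 to 8.50 in male 4. Its log2 fold change was -0.31 (SE 0.12, edgeR adjusted p = 0.506). All of its 50-base stretches were unique, so assignment among copies bears little on it. H2bc8 was at 6.26, 5.82, 6.28, 5.18 and 6.18 CPM in the females and 6.63, 9.61, 6.83, 6.82 and 6.80 CPM in the males, with a fold change of -0.30 (SE 0.14, edgeR adjusted p = 0.506). Male 2 stood apart from the other males, and without it the value was -0.19. H2bc4, the most abundant H2B gene, was at 25.3 to 31.7 CPM in the females and 23.2 to 50.1 CPM in the males, the highest in male 2, with a value of -0.21 (SE 0.19) that became 0.01 without male 2. H2bc15 had a value of 0.38 (SE 0.25), with 1.53 to 2.32 CPM in the females and 0.985 to 2.49 CPM in the males, and 0.62 without male 2.

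No H3 gene had an unadjusted p under 0.05. H3c3 was at 1.94 to 2.81 CPM in the females and 1.80 to 3.48 CPM in the males, with a log2 fold change of -0.10 (SE 0.22). H3c11 was at 1.12 to 1.84 CPM in the females and 1.09 to 1.92 CPM in the males, with a log2 fold change of -0.16 (SE 0.22). The sexes overlapped for both, and 9 of 10 H3 genes had negative values with a median of -0.20.

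H4 was the only class with as many positive as negative values, 6 each, and a median of -0.05; whether it differed from the other classes was not tested. H4c9, the most abundant H4 gene, was at 27.9, 23.9, 28.6, 24.6 and 27.0 CPM in the females and 29.3, 48.4, 33.6, 28.1 and 29.8 CPM in the males. Male 2 was the highest by far, the sexes overlapped only in that female 3 lay above male 4, and the log2 fold change was -0.36 (SE 0.15, edgeR adjusted p = 0.506), or -0.19 without male 2. H4c17 went the other way, at 6.21, 5.45, 6.58, 7.68 and 8.37 CPM in the females and 4.91, 6.91, 4.06, 4.13 and 2.77 CPM in the males. Of the males, 4 lay below every female and male 2 did not, and the fold change was 0.59 (SE 0.22, edgeR adjusted p = 0.506), or 0.79 without male 2. Its near-identical copy H4c18, which holds 89.8% of the 50-base stretches of H4c17, was at 4.61, 4, 4.27, 5.54 and 5.98 CPM in the females and 4.41, 6.28, 3.76, 3.53 and 2.58 CPM in the males, with a log2 fold change of 0.25 (SE 0.22), or 0.45 without male 2 and 0.12 without male 5. H4c6 had a value of 0.29 (SE 0.31) at 8 to 16 counts per library.

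**Figure D3:**
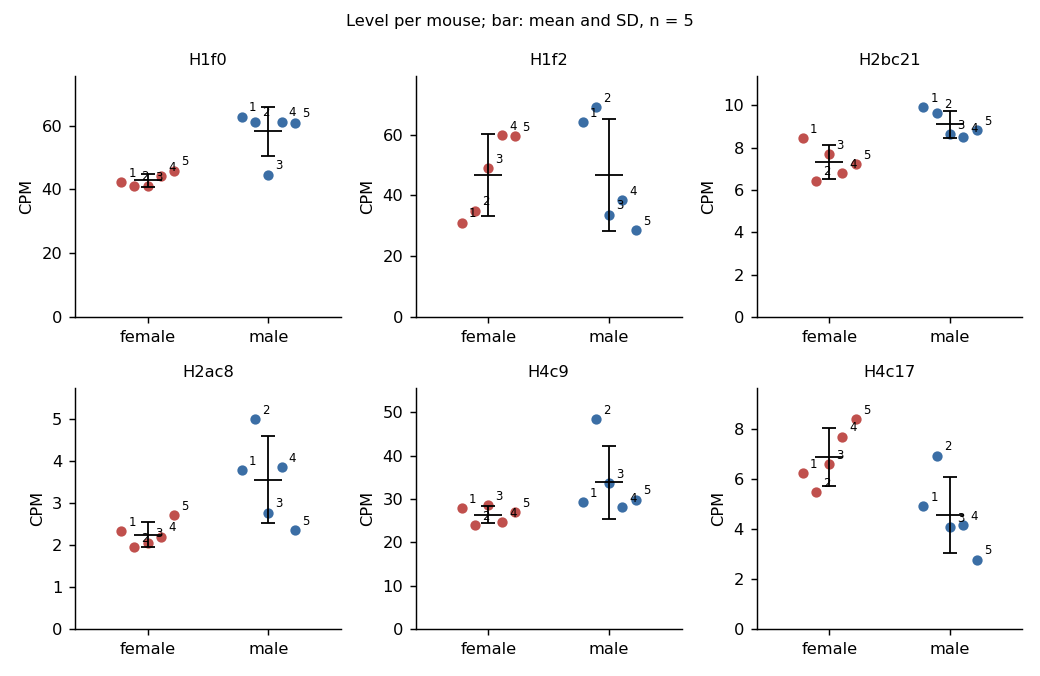
Level in CPM per mouse of 6 histone genes by sex, with the replicate number beside each point and bars for the mean and SD of 5 mice. Of these, H2bc21 alone has no overlap between the sexes, H1f0 is separated apart from male 3 (44.7 CPM), and H1f2 is spread widely in both sexes.

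Over the 59 tested histone genes, 46 had a negative log2 fold change (78%), with a median of -0.20, against 52% and a median of -0.01 over all genes tested. Values of other short genes were also mostly negative: of 1480 other genes with up to 800 bases of exon, 1135 had negative values (76.7%) with a median of -0.23, a comparison chosen after the values were seen; the difference between these groups was not tested. Histone genes with up to 800 bases had a median of -0.16 (28 of 38 negative) and the longer ones -0.24 (18 of 21 negative). Medians were also negative in groups by stem-loop and by cluster: they were -0.16 for the 24 tested genes whose model ends within 200 bases of the stem-loop, -0.24 for the 17 whose model runs further, and -0.19 for the 18 with no match. They were -0.16 in the first Hist1 block, -0.23 in the second and -0.15 in Hist2.

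**Figure D4:**
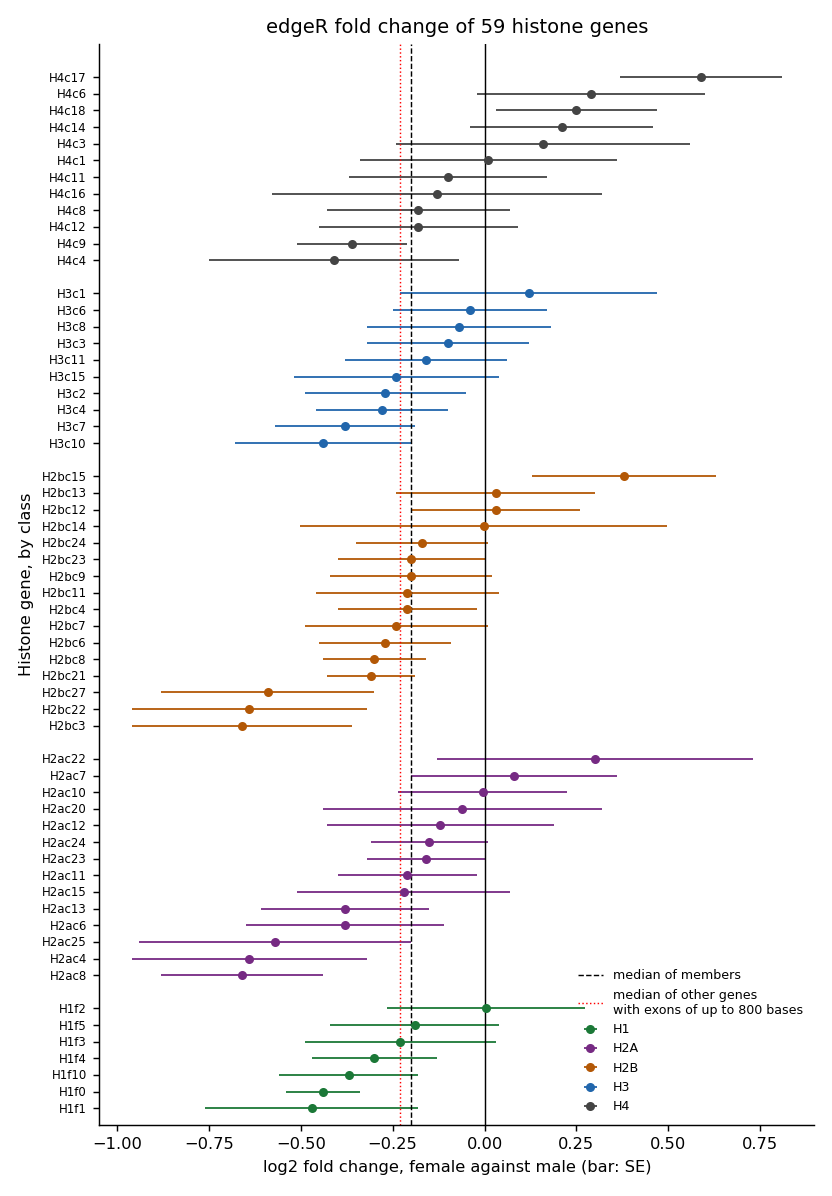
Log2 fold change (female against male, edgeR) with its SE for the 59 tested histone genes, grouped by class; the dashed line is their median (-0.20) and the dotted line the median of other genes with up to 800 bases of exon (-0.23). Most values lie left of 0, and H4 genes lie on both sides.

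Fewer histone genes had negative values when 1 library, male 2, was left out. Male 2 was the highest library for 29 of the 59 histone genes and the lowest for none, while it was the highest for 29.8% of all genes tested and the lowest for 33.3%. The median deviation of histone genes from their mean over 10 libraries was 0.46 in male 2 (log2 of CPM + 0.5), compared with 0.63 for the other genes of up to 800 bases, -0.02 for all genes and -0.10 for the S phase genes. In the other 9 libraries the histone median lay between -0.12 and 0.08. The libraries most often lowest were male 1 and male 4, each for 11 histone genes (8.94% and 8.33% of all genes), and female 4 for 10 (5.11% of all genes). Across genes, the deviation in male 2 correlated with exonic length at a Spearman rho of -0.506, the most negative of the 10 libraries; genes are not independent replicates and no p is given. Without male 2 the histone median was -0.09, with 34 of 59 negative. With a per-library length trend removed it was -0.04, with 35 of 59 negative.

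**Figure D5:**
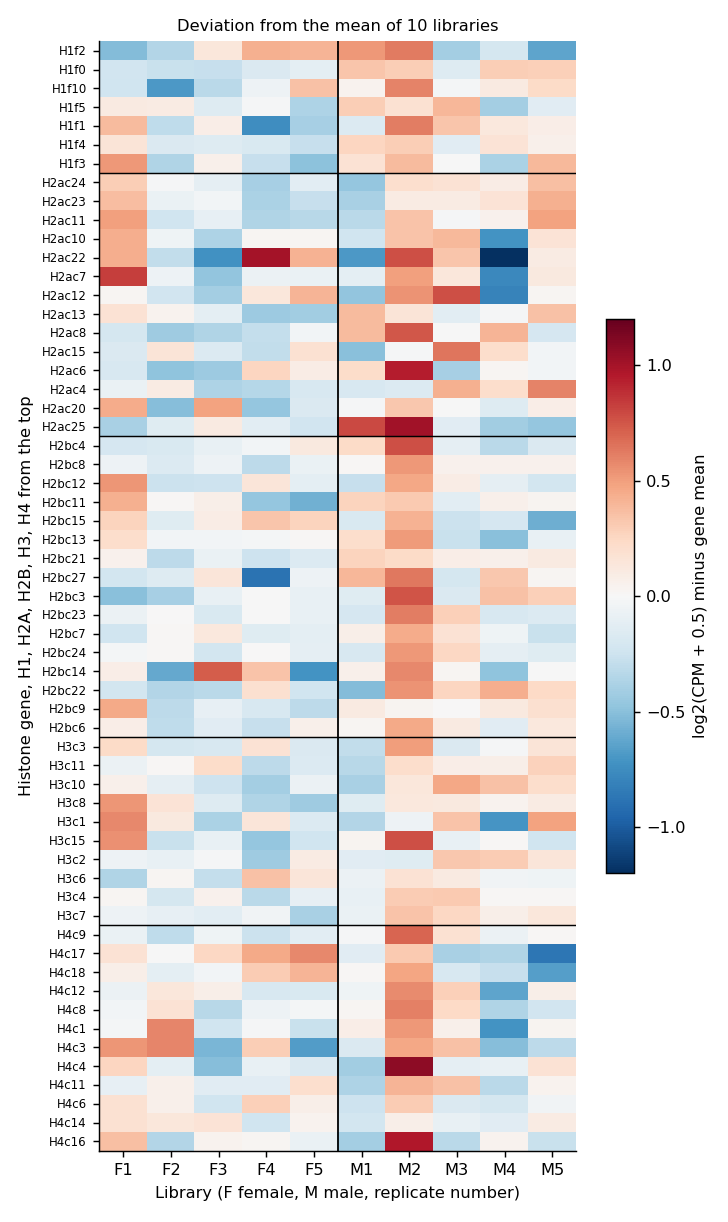
Deviation of each of the 59 tested histone genes (lines, by class) from its mean over 10 libraries (columns), as log2(CPM + 0.5). The column of male 2 is the reddest, with a median deviation of 0.46, and female 1 and male 5 are red for the abundant H2A genes at the top of the H2A group.

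Other genes of the same pathway were described from 6 gene lists, in which neither edgeR nor DESeq2 called a gene. Of 9 tested histone genes outside the naming rule, which are mostly replication-independent variants, 8 had negative values (88.9% against 52% of all genes tested, median -0.23). At an unadjusted p under 0.05 there were 3 (33.3% against 9.17% of all genes tested). These were H3f3a (758.9 ± 57.7 CPM in the females, 1002.0 ± 281.7 in males, -0.40, SE 0.16), H3f3b (630.5 ± 25.1 and 773.2 ± 154.6 CPM, -0.29, SE 0.12), which both encode the H3.3 variant, and H2ax, a variant phosphorylated at DNA breaks (248.1 ± 15.9 and 279.6 ± 7.43 CPM, -0.17, SE 0.07). H2az1, the variant placed at promoters, was at 1251.9 ± 53.6 and 1384.7 ± 180.0 CPM. The variants also had their highest median deviation in male 2, 0.51. H3f3a was at 1162.7 and 1419.2 CPM in males 1 and 2, and at 753.8 to 865.0 CPM in males 3 to 5. H3f3b was at 821.8 and 1021.8 CPM in males 1 and 2, and at 637.8 to 697.5 CPM in males 3 to 5. Per kilobase, H2az1 stood at 742.3 CPM/kb, above each of the 63 histone genes of the rule except H2ac23 and H2ac24. This rank is one of counts. The library kit is not stated, and poly(A) selection would lower mRNAs that end in a stem-loop relative to polyadenylated ones.

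Of the factors that make or degrade histone mRNA, 18 of 26 tested genes had positive and 8 negative values (30.8% negative against 52% over all genes tested), with a median of 0.09, and no test was made of the list. Their summed level was lowest in male 1 (2062.9 CPM) and male 2 (1999.8 CPM), while males 3 to 5, at 2324.5 to 2372.4 CPM, lay within the female range of 2297.9 to 2499.2 CPM. Npat, which activates histone transcription at the start of S phase, was at 42.5 ± 1.71 CPM in the females and 37.2 ± 6.28 in the males (0.19, SE 0.12), and Slbp at 170.9 ± 20.8 and 191.8 ± 25.2 CPM (-0.17, SE 0.11). Coil, the coilin of Cajal bodies, had the smallest p of the list (0.0416, log2 fold change 0.23, SE 0.10, edgeR adjusted p = 0.506). Histone chaperones were split, 8 positive and 10 negative (median -0.05), with Asf1a, a chaperone of H3 and H4, at -0.51 (SE 0.20) and Daxx, which deposits H3.3, at 0.18 (SE 0.08). S phase genes were also split, 13 positive and 12 negative (median 0.0034), and Pcna, the sliding clamp of replication, was at 627.0 ± 57.4 and 722.9 ± 111.0 CPM (-0.21, SE 0.11). Of the mitosis genes 9 were positive and 7 negative (median 0.03), and Mki67 was at 433.3 ± 114.7 and 385.8 ± 89.5 CPM (0.17, SE 0.20). Of non-coding RNAs that bear on how mRNAs were selected, Rn7sk, which has no poly(A) tail, was at 1.40 ± 0.393 CPM in the females and 2.32 ± 1.33 CPM in the males.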

How the data were processed

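Bulk RNA-seq counts of lineage-depleted bone marrow from 5 male and 5 female mice were analysed. The authors deposited raw read counts per Ensembl gene, and a second table of normalized values (signal), which equal the raw counts divided by 1 size factor per library and were used only for that check. The submitters' processing notes name STAR, featureCounts, DESeq, GRCm38.p6 and mm10, with no versions; the library kit, the strand setting, the treatment of reads that map to several places and the annotation release were not stated there or in the labels.

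Genes were filtered with filterByExpr by sex (14674 kept), scaled by TMM, and tested in R 4.3.3 by edgeR 4.0.16 (quasi-likelihood F test, robust dispersions) with sex as the only term, all 10 libraries and Benjamini-Hochberg adjustment over all genes tested. Calls were made at adjusted p under 0.05. The SE is the fold change divided by the root of the F statistic. CPM is the count scaled to a common TMM-scaled library size, and CPM/kb divides it by the exonic length in GENCODE vM21. P-values measure the spread between mice. DESeq2 1.42.0, RLE scaling, other filters, a replicate block, removal of a per-library length trend (lowess, span 0.3) and leaving out libraries were tried as alternatives. On simulated data for this comparison with 14705 genes, the test recovered 69.1% of 97 genes given a log2 change of 1 and 97.9% of 97 given a change of 2, with 7 of 169 calls false. No smaller change and no length trend were simulated. Histone genes ran from -0.66 to 0.59, so these figures do not give the recovery at such sizes. 50-base stretches were compared over all vM21 transcripts, since the read length is not stated.

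The histone genes and the gene lists were chosen with earlier results of these data known. Named genes are the 2 tested members per class with the highest level per kilobase, the 4 of smallest p in each direction, every member called in any fit, and the germ-line members; of each other list at most the 2 genes of smallest p, with Slbp, Npat, H2az1, H2ax, H3f3a, H3f3b, Mki67 and Pcna. Other genes named for sequence, overlap or a shared copy were chosen after values were seen. With 3 or fewer counts no fold is given. The result of 1 marker gene is not reported here.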

Additional observations from a re-analysis of the deposited data

Results flagged for a closer look

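In 42 groups of 5 libraries (levels of named histone genes and class shares, by sex), 5 had 1 library whose distance from the nearest other, set against the range of the group, exceeded the 95% critical value of Dixon's test; chance gives about 1 in 20. The level of H1f0 in male 3 was 44.7 CPM, below the other males at 61.0 to 62.8 CPM. H2bc8 in male 2 was at 9.61 CPM, above the other males at 6.63 to 6.83 CPM. H4c9 in male 2 was at 48.4 CPM, above 28.1 to 33.6 CPM. The share of counts in H2B genes in male 2 was 0.00965%, above 0.00651 to 0.00737%. The share in H3 genes in female 1 was 0.00211%, above 0.00165 to 0.00172% in the other females. Of the 5, 3 were in male 2, the library in which other genes of up to 800 bases also had a median deviation of 0.63; the cause was not tested.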

How the results depend on the processing

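No alternative fitted with edgeR called a histone gene, and DESeq2 called 1, H1f0; the cause was not tested. Over all genes, 60 were called by DESeq2, 5 with a replicate block, 5 with the replicate block and the length trend removed, and 6 to 10 when 1 library was left out, the highest number without male 2. The histone median ran from -0.28 to -0.09 when 1 library was left out, with 34 to 52 of 59 genes negative, the fewest without male 2. It was -0.02 with the replicate block and the length trend removed. The labels do not say that replicate numbers pair the sexes. Same-numbered mice had correlations of deviations from -0.302 to -0.0071, which cannot show whether they were handled together. The replicate block called 0 histone genes. Leaving out 1 library moved the share difference (female minus male) between -0.02 and 0.000764 percentage points for H2A and between -0.000398 and 0.000283 for H4. Signs of log2 fold changes near 0 turned. H1f2 was at -0.0016 with a filter of 1 CPM in 5 libraries and at 0.48 without males 1 and 2, and ran from -0.13 to 0.19 when 1 library was left out. With the length trend removed H3c3 was at 0.07 and H3c11 at 0.01, and with the replicate block added they were at 0.08 and 0.02, H2ac24 at 0.03 and H2ac23 at 0.02. H2bc4 was at 0.13 without males 1 and 2 and ran from -0.31 to 0.01, and H3c3 from -0.19 to 0.06, when 1 library was left out. Depth limits the genes with few counts, such as H4c6 with 8 to 16 per library.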

Other observations

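The near-identical copies of histone genes held a pattern that was noticed after the values were seen and was not tested. In 8 pairs of histone genes that share at least 75% of 50-base stretches, the ratio of counts was compared between sexes, and only the ratio of H4c17 to H4c18 did not overlap. It was 1.35, 1.36, 1.54, 1.39 and 1.40 in females and 1.11, 1.10, 1.08, 1.17 and 1.07 in males, with means of 1.41 ± 0.0772 and 1.11 ± 0.039 (SD, n = 5). Stretches found in H4c17 alone lie in bases 1 to 85 of its 402-base transcript. With 55 to 214 counts per gene and library, counting error is large: the exact 95% interval of the H4c18 part of the pair was 36.0 to 49.4% in female 1 and 40.6 to 54.1% in male 1.

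For H2ac24 against H2ac23, the pair that dominates histone counts, the ratio fell in a narrow range in 5 libraries of both sexes and above it in the other 5. It was 0.993, 0.997, 0.994, 1 and 0.997 in female 1, female 3 and males 1, 4 and 5, where the counts differed by 2 to 107. The SD of the difference of independent counts in these libraries would be 147.7 to 185.8. Whether reads were counted in both copies was not tested. The ratio was 1.09, 1.04, 1.16, 1.12 and 1.10 in females 2, 4 and 5 and males 2 and 3. There H2ac24 had 390 to 2064 more counts, against 145.1 to 178.3 expected as the SD of the difference of independent counts. Stretches found in H2ac24 alone lie in bases 1 to 79 of its transcript, and in H2ac23 alone in bases 404 to 480. These are the start of the H2ac24 model and the end of the H2ac23 model. The H2ac23 model runs 31 bases past the stem-loop and the H2ac24 model 3. Such stretches can reflect where the gene models begin and end, and do not show that the sequences of the copies differ.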
